A study of Mus musculus with 9 samples.

Results

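Expression of 9 genes of tryptophan breakdown and kynurenine sensing was examined in mouse B cells, out of 17596 genes with a deposited value. The genes were *Ido1*, *Ido2*, *Afmid*, *Kmo*, *Kynu*, *Haao*, *Qprt*, *Ahr* and *Ahrr*, taken by gene symbol. The set was chosen by measured values, because *Ido1* was strongly reduced in activated Mct1f/fMb1Cre cells, so the genotype difference on day 3 and its contrast with day 0 are given for the 9 genes as a description, without a p-value. The study compared splenic B cells of Mct1f/fMb1Cre mice with those of Mb1Cre mice, the control, either naive (day 0) or after 3 days of activation with LPS at 10 μg/mL and IL-4 at 50 ng/mL. Both genotypes came from young adult mice and carried the Cre recombinase under the B-lineage gene Mb1, and in Mct1f/fMb1Cre mice, whose floxed allele was made on the C57BL/6J (B6) background, Cre removes a floxed segment of Mct1, a lactate transporter gene listed under its symbol *Slc16a1*. There were 2 libraries per genotype on day 0, and 2 Mb1Cre and 3 Mct1f/fMb1Cre libraries on day 3. The labels name no mouse for a library, so p-values measure the spread between libraries only, which may be technical.

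Most tryptophan that is not used for protein is broken down along the kynurenine pathway. *Ido1* and *Ido2* encode the dioxygenases that open the tryptophan ring, the first and rate-limiting step, and *Ido1* is known as a gene that interferon induces in dendritic cells and macrophages, where the loss of tryptophan and the rise of kynurenine restrain T cells. *Afmid* then releases kynurenine, *Kmo* and *Kynu* process it, *Haao* forms the precursor of quinolinate and *Qprt* carries quinolinate toward NAD. Kynurenine also binds the aryl hydrocarbon receptor, the transcription factor encoded by *Ahr*, and *Ahrr* encodes a repressor that this receptor induces.

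The deposited values were FPKM, which are normalised for transcript length and for the number of mapped fragments, so levels of different genes can be set side by side. They hold no read counts, and the depth of each library is unknown. FPKM summed to between 477079 and 491459 per library on day 0 and to between 547355 and 563586 on day 3. The targeted gene *Slc16a1* had 22.58 and 22.95 FPKM in the Mb1Cre libraries on day 3, against 10.82, 9.81 and 9.50 FPKM in the Mct1f/fMb1Cre libraries. On day 0 it had 4.33 and 3.80 FPKM in Mb1Cre and 3.71 and 4.06 FPKM in the libraries labelled Mct1f/fMb1Cre, so the ranges overlapped and the gene-level value did not set the day 0 genotypes apart. Whether this value counts exons outside the floxed segment is not given in the sources used here. The summed level of 5 B cell markers lay between 3824 and 4240 FPKM on day 0 and between 1852 and 1988 FPKM on day 3. The sum of 6 myeloid markers lay between 989 and 1754 FPKM on day 0 and between 13.7 and 23.7 FPKM on day 3, and that of 6 T and NK cell markers between 50.2 and 58.7 and between 5.92 and 7.46 FPKM. The Y-linked gene *Ddx3y* stood at 0.24 and 0.02 FPKM in the Mb1Cre libraries on day 0, at 31.13 and 0.20 FPKM in those labelled Mct1f/fMb1Cre, and at 14.7 to 16.9 FPKM in every day 3 library.

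The naive libraries held the later enzymes of the pathway and almost no *Ido1* or *Ido2*. On day 0 the order of levels was the same in each of the 4 libraries, with *Haao* first, then *Kmo*, *Kynu*, *Afmid*, *Ahr*, *Qprt*, *Ahrr*, *Ido1* and *Ido2*. *Haao* had 79.11 and 77.00 FPKM in Mb1Cre and 76.81 and 74.06 FPKM in the libraries labelled Mct1f/fMb1Cre. *Kmo* stood at 54.54 and 55.09 FPKM in Mb1Cre and at 55.11 and 54.57 FPKM in the other genotype, apart from *Haao* above and *Kynu* below by more than the spread between libraries. *Kynu* had 17.61 and 17.57 FPKM in Mb1Cre and 16.42 and 17.24 FPKM in the other genotype, close to *Afmid* with 16.56 and 14.40 and with 14.84 and 15.51 FPKM. *Ido1* was at 0.15 and 0.07 FPKM in Mb1Cre and at 0.19 and 0.11 FPKM in the libraries labelled Mct1f/fMb1Cre, and *Ido2* at 0.06 and 0.04 and at 0.03 and 0.02 FPKM. The lowest 3 of the order, *Ahrr*, *Ido1* and *Ido2*, all lay under 0.30 FPKM, a level at which an order carries little weight.

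Activation lowered most of the later enzymes, while the dioxygenase genes left the low end of this order. Values were compared on the scale of log2(FPKM + 1), which understates the change of low genes, with limma across the 10823 genes whose mean over the libraries reached 1 FPKM. A call needed both a log2 difference above 0.5 in size and an adjusted p below 0.05. Of the 9 genes, 7 entered the test; *Qprt* and *Ahrr* were too low. *Ido1* and *Ido2* passed the filter through their day 3 levels alone and had to differ between the days, so their activation values are given as a description. The group means of the other 5 genes all reached 1 FPKM. Of these 5 genes, 1 rose (*Kynu*) and 4 fell (*Kmo*, *Haao*, *Afmid* and *Ahr*) in Mb1Cre cells, where 24.8% of all tested genes were called higher and 33% lower. In Mct1f/fMb1Cre cells the 1 higher and the 4 lower genes were those named for Mb1Cre, against 23.4% of all tested genes higher and 33.2% lower. The adjusted p of limma lay between 2.2e-11 and 1.4e-06 for the 5 genes in Mb1Cre and between 3.7e-11 and 4.4e-06 in Mct1f/fMb1Cre. Their median log2 difference was -1.19 in Mb1Cre and -1.34 in Mct1f/fMb1Cre, beside -0.12 and -0.14 for all tested genes. Scaling each library to a common total moved the median of all genes to -0.31 and -0.30, and median-of-ratios scaling moved it to 0.07 and 0.06. The split over all genes in Mb1Cre was 2687 higher and 3571 lower as deposited, 2074 and 4442 with a common total, and 3433 and 2731 with median-of-ratios scaling, and the direction of each of the 7 genes was the same under the 3 scalings.

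**Figure D1:**
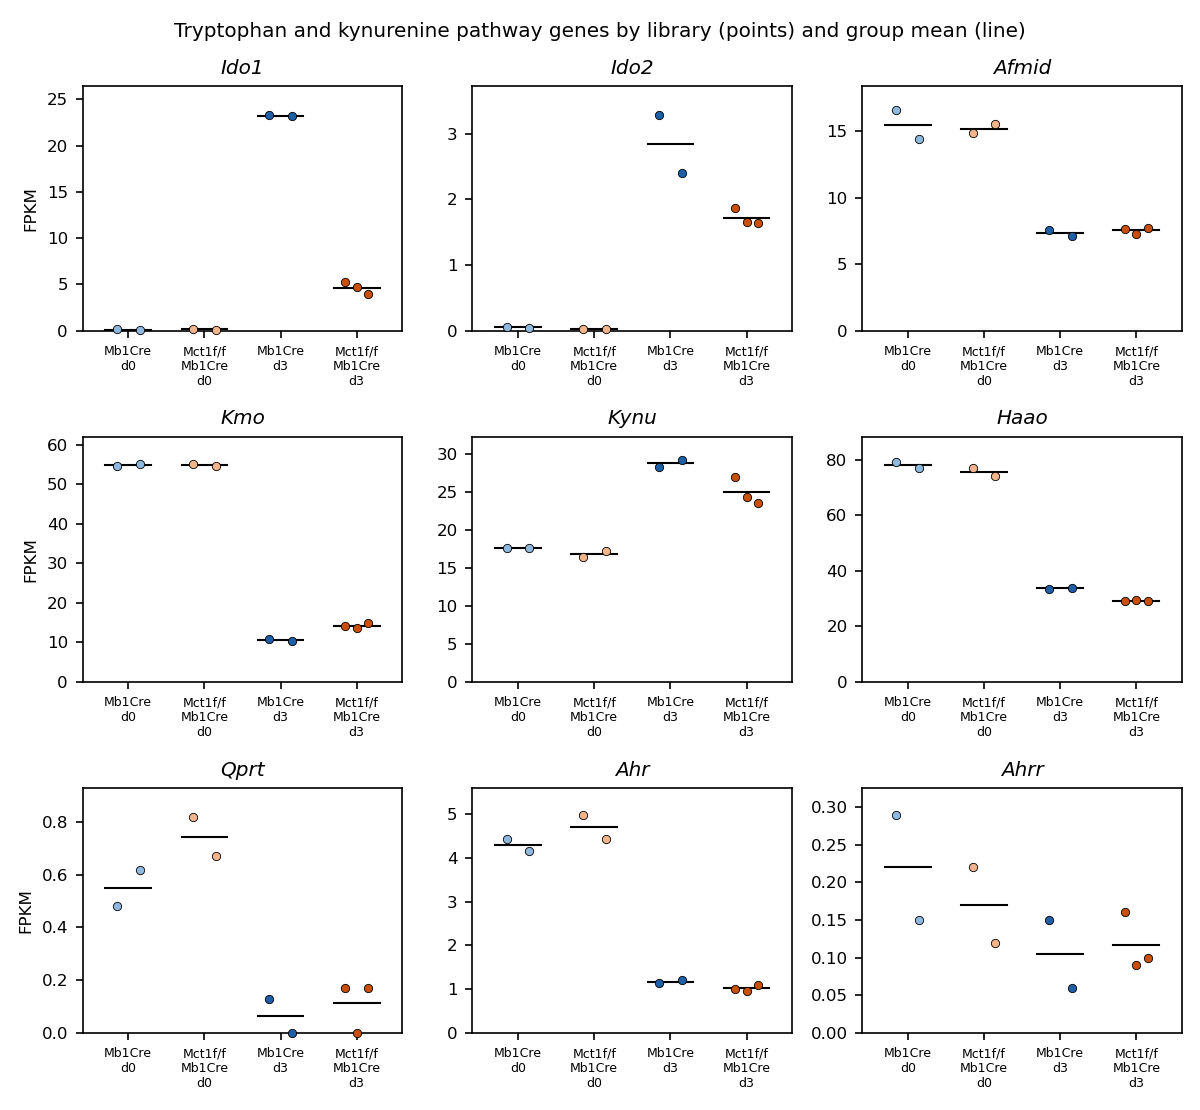
FPKM (vertical axes, linear and starting at 0) of the 9 genes in each library (points) of the 4 groups, with the group mean as a line; d0 is day 0 and d3 is day 3. On day 3 *Ido1* stands at 23.33 and 23.18 FPKM in Mb1Cre and at 5.32, 4.73 and 3.92 FPKM in Mct1f/fMb1Cre, while *Kmo*, *Haao*, *Afmid* and *Ahr* are lower on day 3 than on day 0 in both genotypes.

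Both dioxygenase genes were near 0 before and measurable after LPS and IL-4. *Ido1* reached 23.33 and 23.18 FPKM in the Mb1Cre libraries on day 3, a difference from day 0 of 4.45 ± 0.11 (SE) on the log2(FPKM + 1) scale. In Mct1f/fMb1Cre libraries it reached 5.32, 4.73 and 3.92 FPKM, a difference of 2.29 ± 0.10. *Ido2* went to 3.29 and 2.40 FPKM in Mb1Cre, a difference of 1.86 ± 0.12, and to 1.87, 1.65 and 1.64 FPKM in Mct1f/fMb1Cre, a difference of 1.41 ± 0.11 that was 0.42, under the limit for a call, with a pseudocount of 5. In each genotype all day 3 libraries were above all day 0 libraries for both genes.

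Among the 4 tested genes of the enzymes that follow, *Kynu*, the kynureninase gene, rose and the others fell. It had 28.27 and 29.19 FPKM in Mb1Cre on day 3, which was 163% of its day 0 mean, and 27.01, 24.37 and 23.55 FPKM in Mct1f/fMb1Cre, or 148%. Its log2 differences of 0.68 ± 0.06 and 0.54 ± 0.06 were near the limit for a call; with a common total they were 0.48 and 0.37 and no longer called, and the call in Mct1f/fMb1Cre also ended without its day 3 replicate 1, at 0.49, and with a pseudocount of 5, at 0.46. *Kmo*, the monooxygenase gene that competes with *Kynu* for kynurenine, fell to 10.82 and 10.23 FPKM in Mb1Cre, 19.2% of its day 0 mean, and to 14.05, 13.50 and 14.90 FPKM in Mct1f/fMb1Cre, 25.8% of it. The differences were -2.28 ± 0.05 and -1.88 ± 0.05. *Haao* fell to 33.44 and 33.79 FPKM in Mb1Cre and to 29.02, 29.55 and 29.08 FPKM in Mct1f/fMb1Cre, by 1.19 ± 0.04 and 1.34 ± 0.04 on the log2 scale, and it kept the highest level of the 9 genes.

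*Afmid*, the formamidase gene, fell by 0.98 ± 0.07 in Mb1Cre, to 7.54 and 7.15 FPKM, and by 0.92 ± 0.06 in Mct1f/fMb1Cre, to 7.63, 7.30 and 7.69 FPKM. In the GENCODE annotation of GRCm38 it shares 1566 exonic bases, 44.2% of its own, with *Gm20708* on the same strand and 83 with *Tk1* on the other, so its value is uncertain wherever the counting could split such reads. *Qprt*, at the entry to NAD, was listed at 0.48 and 0.62 FPKM in Mb1Cre and at 0.82 and 0.67 FPKM in the libraries labelled Mct1f/fMb1Cre on day 0. On day 3 it was listed at 0.13 and 0 FPKM in Mb1Cre and at 0.17, 0 and 0.17 FPKM in Mct1f/fMb1Cre. The day 3 libraries all lay below the day 0 libraries for *Qprt*, at levels that did not enter the main test. The summed myeloid and T and NK cell markers fell between the days along with these genes. *Ddx3y* differed between the days in the Mb1Cre libraries and was uneven between the day 0 libraries labelled Mct1f/fMb1Cre. The part of the markers or of *Ddx3y* in the activation values was not tested. In bulk libraries, fewer cells of a type and less RNA per cell cannot be told apart.

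The receptor gene *Ahr* fell with the later enzymes. It had 4.43 and 4.17 FPKM in Mb1Cre and 4.99 and 4.43 FPKM in the libraries labelled Mct1f/fMb1Cre on day 0. On day 3 it had 1.13 and 1.20 FPKM in Mb1Cre, a fall of 1.29 ± 0.09 on the log2 scale, and 1.01, 0.96 and 1.09 FPKM in Mct1f/fMb1Cre, where it fell by 1.50 ± 0.08. *Ahr* shares 127 exonic bases, 2.06% of its own, with the lincRNA gene *Gm48236* on the other strand. *Ahrr* was at or under 0.29 FPKM in every library, with 0.29 and 0.15 FPKM in naive Mb1Cre cells and 0.15 and 0.06 FPKM in activated ones. Its values in Mct1f/fMb1Cre were 0.22 and 0.12 FPKM before and 0.16, 0.09 and 0.10 FPKM after activation, so the ranges of the 4 groups overlapped.

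The upstream sequence of *Ahrr* is shown because the gene is a known target of the receptor and its level was low in all groups. It holds the 250 bases before the start of the gene in RefSeq on GRCm38.p6, chr13:74292332-74292581 on the minus strand, in which GENCODE annotates no exon, and capitals mark the core of the xenobiotic response element, GCGTG, to which the receptor and its partner bind.
Ahrr: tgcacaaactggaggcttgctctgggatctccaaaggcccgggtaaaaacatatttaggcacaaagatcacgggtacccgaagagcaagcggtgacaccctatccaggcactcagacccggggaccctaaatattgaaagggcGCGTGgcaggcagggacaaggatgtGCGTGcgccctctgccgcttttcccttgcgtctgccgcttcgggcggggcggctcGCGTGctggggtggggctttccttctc
The core stands 3 times in this window, with its first base 107, 82 and 27 bases before the RefSeq start. GCGTG on either strand was present in 28.2% of 32851 RefSeq windows of this length. Among the other genes with a RefSeq window, *Haao* held the core once, 137 bases before the RefSeq start, and *Kmo*, *Afmid* and *Qprt* did not hold it. Those windows are not shown, since GENCODE annotates exons over 250 of the 250 bases for *Haao*, 197 for *Kmo* and for *Qprt*, and 205 for *Afmid*, and the *Haao* and *Kmo* windows lie inside the annotated span of their genes. The gamma-activated site TTCNNNGAA, bound by STAT proteins, stood in the *Qprt* window, as in 7.02% of all windows. The longer STAT6 type of that site, the core of the interferon-stimulated response element and the AP-1 site TGANTCA were searched on both strands and matched none of these 5 windows, against 5.85%, 2.98% and 6.75% of all windows. *Ido1*, *Ido2*, *Kynu* and *Ahr* had no window in the table used here.

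The genotype difference on day 3 was described for the 9 genes by their values. *Ido1* had a mean of 4.66 ± 0.703 FPKM (SD, n = 3) in Mct1f/fMb1Cre against 23.3 ± 0.106 FPKM (SD, n = 2) in Mb1Cre, or 20.0% of the control mean, and a log2 difference of -2.11 ± 0.10 (SE). No Mct1f/fMb1Cre library came near the control range. *Ido2* was at 60.5% of the control mean, with a log2 difference of -0.49 ± 0.11, and its highest Mct1f/fMb1Cre library (1.87 FPKM) was below its lower control library (2.40 FPKM). *Kynu* and *Haao* were each at 86.9% of the control mean, with log2 differences of -0.20 ± 0.06 and -0.20 ± 0.04, and *Ahr* was at 87.6%, with -0.10 ± 0.08. *Kmo* was the one gene of the 7 whose Mct1f/fMb1Cre libraries all lay above the control libraries, at 134% of the control mean and a log2 difference of 0.39 ± 0.05, with 13.50 FPKM in its lowest Mct1f/fMb1Cre library and 10.82 FPKM in its higher control library. *Afmid* was at 103%, with overlapping groups. The groups did not overlap for 6 of the 7 genes, all but *Afmid*, where 47.1% of all tested genes did not overlap.

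By the rule for calls, *Ido1* was the 1 gene of the 7 past both limits on day 3, beside 2.42% of all tested genes, and with the limit on the fold change left out 5 of the 7 were past the threshold (*Ido1*, *Kmo*, *Ido2*, *Kynu* and *Haao*), beside 15.2% of all tested genes. These counts hold the contrast by which the genes were chosen, and nothing is read from them. *Ido2* was close to the limit of 0.5 and passed it without Mb1Cre day 3 replicate 2, at -0.66, and without Mct1f/fMb1Cre day 3 replicate 1, at -0.53; without Mb1Cre day 3 replicate 1 its mean fell under the filter and it had no value. The genotype difference on day 3 minus that on day 0 was -2.16 ± 0.15 for *Ido1*, -0.46 ± 0.16 for *Ido2* and 0.39 ± 0.07 for *Kmo* on the log2 scale. Here 1 of the 7 genes (*Ido1*) was past both limits beside 3.23% of all tested genes, and nothing is read from this count either.

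Before activation no genotype difference was detected for these genes. In the day 0 comparison, which the choice of genes did not use, 0 of the 7 genes were called by limma and 0 had an unadjusted p under 0.05, beside 0.277% of all tested genes called. That share stands for 30 genes, which became 102 without Mb1Cre day 0 replicate 2, 67 without the day 0 replicate 2 labelled Mct1f/fMb1Cre, and 2 when the fit held day 0 libraries alone. The Y-linked *Ddx3y* was uneven here, with 31.13 and 0.20 FPKM in the libraries labelled Mct1f/fMb1Cre and 0.24 and 0.02 FPKM in Mb1Cre. Its part in this comparison was not tested. The log2 difference of *Ido1* between the libraries labelled Mct1f/fMb1Cre and Mb1Cre was 0.05, with a 95% confidence interval from -0.20 to 0.30 (limma, adjusted p = 0.899). That of *Kmo* was 0.00065, with an interval from -0.12 to 0.12 (limma, adjusted p = 0.998). For *Ido2* the difference was -0.03, from -0.30 to 0.23 (limma, adjusted p = 0.945), and for *Ahr* 0.11, from -0.09 to 0.30 (limma, adjusted p = 0.679). *Kynu*, *Afmid* and *Haao* had differences of -0.06, -0.02 and -0.05, and limma adjusted p of 0.757, 0.932 and 0.695. Groups did not overlap for 3 of the 7 genes (*Ido2*, *Kynu* and *Haao*), where 38.4% of all tested genes did not overlap. With *Ido1* and *Ido2* at or under 0.19 FPKM in every day 0 library, a difference between genotypes in these 2 genes could hardly have been detected on that day.

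**Figure D2:**
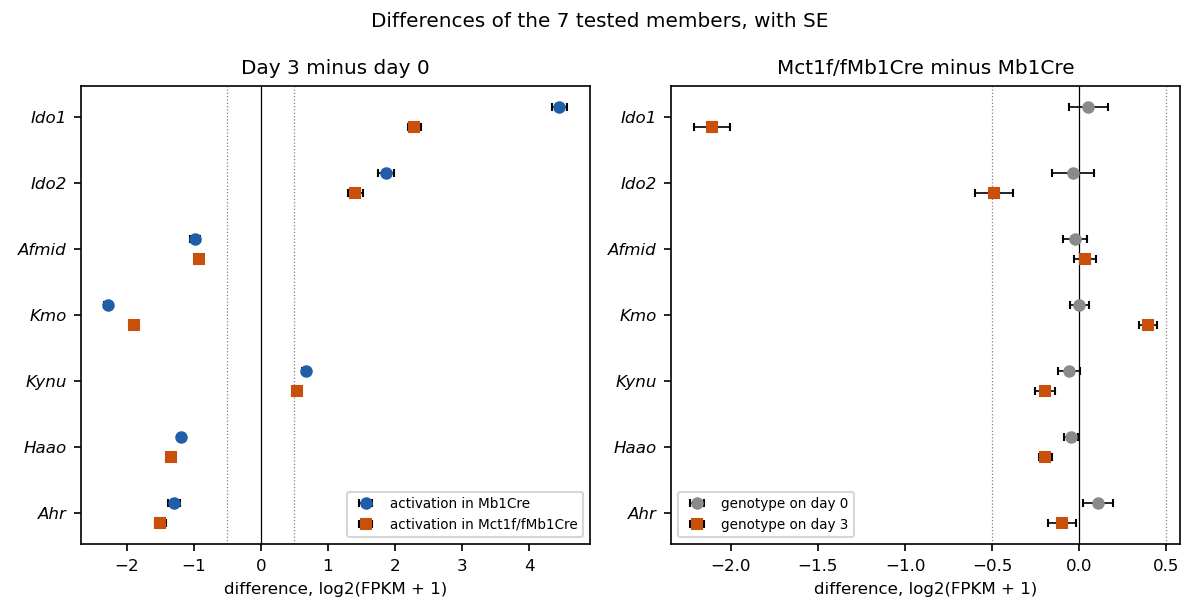
Differences on the log2(FPKM + 1) scale (horizontal axes) of the 7 tested genes with their SE, on the left between day 3 and day 0 in each genotype and on the right between Mct1f/fMb1Cre and Mb1Cre on each day; dotted lines mark the limit of 0.5. *Ido1* stands at 4.45 and 2.29 on the left, and on the right at 0.05 on day 0 and -2.11 on day 3, where *Kmo* lies at 0.39.

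The unequal genotype differences changed the order of the pathway genes within each library on day 3. In both Mb1Cre libraries *Ido1* came after *Haao* and *Kynu* and before *Kmo* and *Afmid*. In all 3 Mct1f/fMb1Cre libraries it came after *Haao*, *Kynu*, *Kmo* and *Afmid* and before *Ido2* and *Ahr*. The ratio of *Ido1* to *Kmo*, which does not depend on the scaling of a library, was 2.16 and 2.27 in Mb1Cre and 0.379, 0.350 and 0.263 in Mct1f/fMb1Cre. The ratio of *Ido1* to *Kynu* was 0.825 and 0.794 in Mb1Cre and 0.197, 0.194 and 0.166 in Mct1f/fMb1Cre. *Ido1* exceeded *Ido2* by 7.09 and 9.66 times in the control libraries and by 2.84, 2.87 and 2.39 times in the others. At the branch point, the ratio of *Kynu* to *Kmo* went from between 0.298 and 0.323 in the day 0 libraries to 2.61 and 2.85 in Mb1Cre and to 1.92, 1.81 and 1.58 in Mct1f/fMb1Cre. None of these ratios was tested, and those with *Ido1* hold the values by which the genes were chosen.

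**Figure D3:**
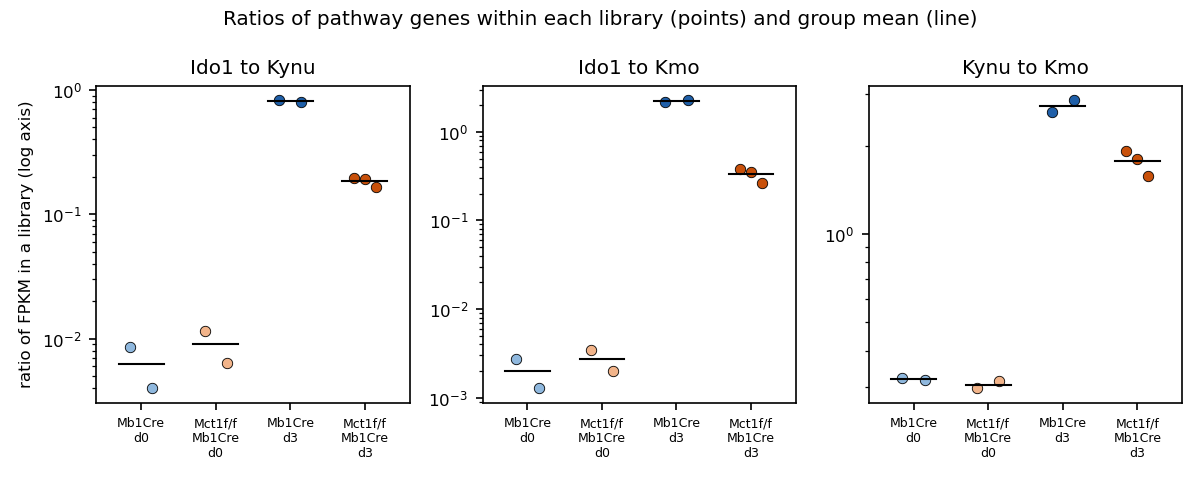
Ratios of FPKM within each library (points, logarithmic vertical axes) of *Ido1* to *Kynu*, *Ido1* to *Kmo* and *Kynu* to *Kmo* in the 4 groups, with the group mean as a line; d0 is day 0 and d3 is day 3. The ratio of *Ido1* to *Kmo* is 2.16 and 2.27 in the Mb1Cre libraries on day 3 and at most 0.379 in the Mct1f/fMb1Cre libraries.

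*Ido1* and *Ido2* are neighbouring protein-coding genes on the minus strand of chromosome 8 in GRCm38, *Ido1* at chr8:24584136-24597009 and *Ido2* at chr8:24531892-24576333, with 7802 bases between them. On the other side of *Ido1* the nearest annotated protein-coding gene is *Adam18*, 5236 bases away, which was at 0 or 0.02 FPKM in every library. Of these protein-coding neighbours of *Ido1*, *Ido2* was thus expressed on day 3 and *Adam18* was not detected above 0.02 FPKM.

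Dendritic cells are a known source of *Ido1*. On day 3 the summed level of 6 dendritic cell markers was lower in Mct1f/fMb1Cre, through *Flt3* and *Zbtb46*. The sum was 23.08 to 23.10 FPKM in Mb1Cre and 10.05 to 11.34 FPKM in Mct1f/fMb1Cre. It was highest in the day 0 libraries, at 74.2 to 84.7 FPKM, where *Ido1* was at or under 0.19 FPKM. *Flt3* carried most of it, with 17.61 and 17.36 FPKM in Mb1Cre and 6.67, 6.96 and 7.41 FPKM in Mct1f/fMb1Cre, followed by *Zbtb46* with 4.80 and 4.98 and with 2.65, 2.87 and 3.18 FPKM. The other markers of this list, *Itgax*, *Xcr1*, *Clec9a* and *Siglech*, were at or near 0 on day 3 in all 5 libraries, at no more than 0.45, 0.26, 0.02 and 0.09 FPKM. At these levels the means of *Itgax* and *Siglech* were higher in Mct1f/fMb1Cre and those of *Xcr1* and *Clec9a* lower. In Mb1Cre the means of *Flt3* and *Zbtb46* were higher on day 3 than on day 0, while those of the other markers were lower. In Mct1f/fMb1Cre the means of all these markers were lower on day 3. The sum of 3 plasma cell markers was also lower, with 126.6 to 137.0 FPKM in Mb1Cre and 91.1 to 110.7 FPKM in Mct1f/fMb1Cre, through *Jchain* with 126.07 and 115.92 against 98.13, 85.56 and 78.56 FPKM, while the means of *Sdc1* and *Prdm1* were higher in Mct1f/fMb1Cre. The sum of 6 myeloid markers was higher, with 13.7 to 15.8 FPKM in Mb1Cre and 20.9 to 23.7 FPKM in Mct1f/fMb1Cre, mostly through *Lyz2* with 11.48 and 10.04 against 16.78, 17.60 and 20.36 FPKM, while the means of *S100a8* and *S100a9* were lower. The part of these markers in the *Ido1* values was not tested.

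The 5 genes whose values followed *Ido1* most closely over the 9 libraries were *Nlgn2*, *Slc16a1*, *Crem*, *Bcl2l11* and *Il6*. Pearson's r on the log2(FPKM + 1) scale was 0.998 for *Nlgn2* and *Slc16a1*, 0.997 for *Crem* and *Bcl2l11* and 0.995 for *Il6*. The 9 libraries fall into 4 groups, so such values describe a shared pattern of group levels and carry no test. *Nlgn2*, which encodes a synaptic adhesion protein, had 3.32 and 3.24 FPKM in Mb1Cre and 1.84, 1.64 and 1.43 FPKM in Mct1f/fMb1Cre on day 3. *Crem*, a gene for a transcription factor that responds to cyclic AMP, had 26.09 and 24.77 against 12.95, 12.96 and 11.91 FPKM. *Bcl2l11*, the gene of the pro-apoptotic protein BIM, had 46.58 and 48.06 against 31.08, 29.24 and 29.98 FPKM. *Il6*, a cytokine gene, had 11.76 and 12.45 against 4.13, 3.76 and 3.58 FPKM.

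**Figure D4:**
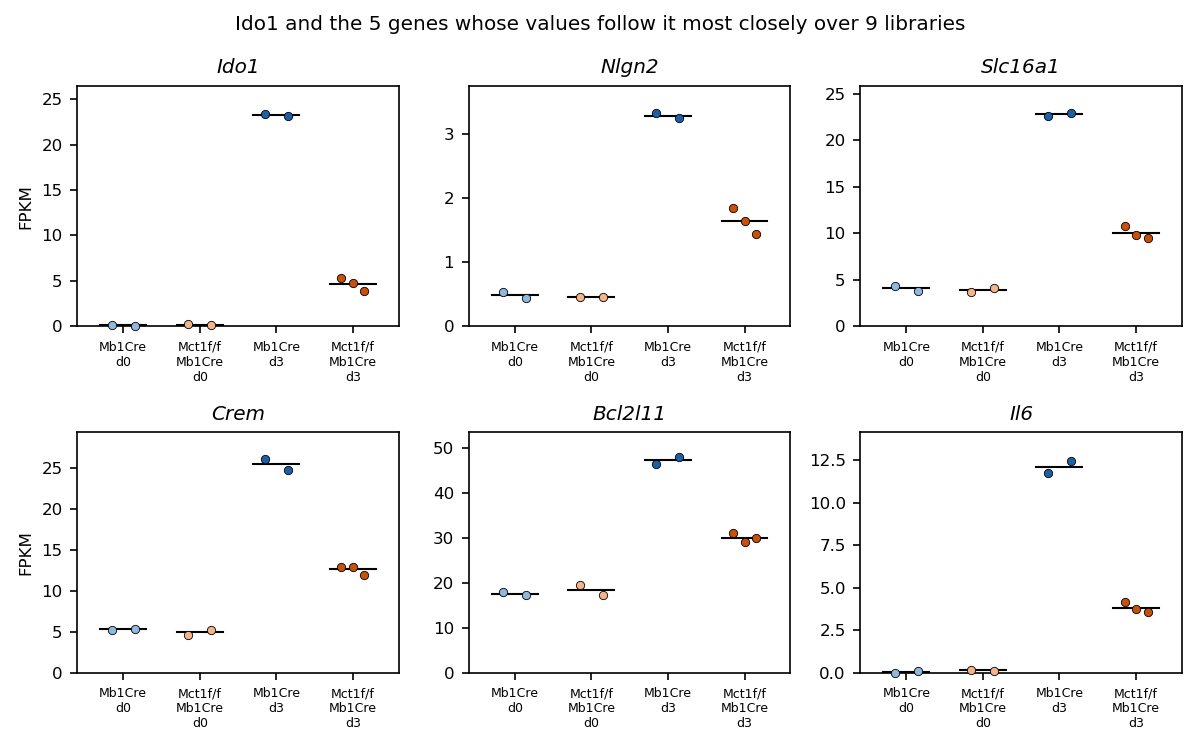
FPKM (vertical axes, linear and starting at 0) of *Ido1* and the 5 genes with the highest Pearson correlation to it, in each library (points) with the group mean as a line; d0 is day 0 and d3 is day 3. Each of the 6 genes is lowest on day 0, highest in Mb1Cre on day 3 and between these levels in Mct1f/fMb1Cre on day 3, where *Il6* stands at 3.58 to 4.13 FPKM.

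The other genes of the pathway were followed in 4 lists of 59 genes in all, of which 56 were in the table and 45 entered the test. The first list holds tryptophan transporters and other users of tryptophan. In Mb1Cre cells 4 of its 7 tested genes rose on activation and 2 fell, beside the 24.8% and 33% of all tested genes given above, and the 6 genes had the same directions in Mct1f/fMb1Cre cells. *Slc7a5*, the light chain of the main transporter of tryptophan in lymphocytes, went from 11.86 and 10.41 FPKM to 95.61 and 97.63 FPKM in Mb1Cre, a rise of 3.01 ± 0.07 on the log2 scale, and from 10.51 and 11.44 FPKM to 96.01, 101.95 and 108.74 FPKM in Mct1f/fMb1Cre. *Il4i1*, a secreted oxidase of aromatic amino acids that IL-4 induces, rose by 2.15 ± 0.07 to 371.24 and 360.55 FPKM in Mb1Cre and by 2.28 ± 0.06 to 373.02, 406.90 and 394.92 FPKM in Mct1f/fMb1Cre, and so stood far above *Ido1* on the same scale. *Slc3a2*, the heavy chain of the transporter, rose by 1.16 ± 0.05 and 1.05 ± 0.04. The other riser was *Wars*, the tryptophanyl-tRNA synthetase gene, and the transporter genes *Slc7a8* and *Slc16a10* fell, by 1.84 ± 0.11 and 1.07 ± 0.07 in Mb1Cre. *Tdo2*, the dioxygenase gene of the liver, was at or under 0.31 FPKM in every library.

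In the list of later kynurenine and NAD steps, 3 of 10 tested genes rose and 3 fell in Mb1Cre, and 2 rose and 3 fell in Mct1f/fMb1Cre, shares near those of all tested genes (24.8% higher and 33% lower, and 23.4% and 33.2%). *Nampt*, the rate-limiting enzyme of NAD salvage, rose by 1.53 ± 0.05 and 1.34 ± 0.05 on the log2 scale. The 2 kynurenine aminotransferase genes moved apart, with *Kyat3* up by 1.05 ± 0.09 and 1.36 ± 0.08 and *Kyat1* down, at -0.88 ± 0.11 and -1.09 ± 0.10. *Nadsyn1*, the last enzyme of the route from quinolinate to NAD, had differences of -0.79 ± 0.09 and -0.75 ± 0.08. *Nmrk1*, a kinase gene of NAD salvage, also fell in both genotypes, and *Nmnat3*, an adenylyltransferase gene, rose in Mb1Cre by 0.52 ± 0.11. In the list of receptor partners, targets and related receptors, 3 of 7 tested genes rose and 2 fell in Mb1Cre, and 3 rose and 3 fell in Mct1f/fMb1Cre, beside the same shares of all tested genes. The chaperone genes *Hsp90ab1* and *Ptges3*, whose products hold the receptor in the cytoplasm, rose by 1.51 ± 0.04 and 0.92 ± 0.04 in Mb1Cre. *Tiparp*, a known target of the receptor, rose by 1.19 ± 0.08 and 0.94 ± 0.07 in the 2 genotypes. *Gpr35*, a receptor of kynurenic acid, went from 6.81 and 7.74 FPKM in naive Mb1Cre cells to 0.45 and 0.41 FPKM after activation, a difference of -2.53 ± 0.09. *Lpar6*, a lysophosphatidic acid receptor gene, also fell in both genotypes. The classical targets *Cyp1a1* and *Cyp1a2* were at or under 0.06 FPKM throughout, and *Cyp1b1* was too, apart from 0.70 FPKM in 1 Mb1Cre library on day 0.

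The last list holds interferon signalling genes and other factors known to act on *Ido1*. In Mb1Cre 7 of its 21 tested genes rose and 7 fell on activation, and in Mct1f/fMb1Cre 4 rose and 7 fell, again near the 24.8% higher and 33% lower, and the 23.4% and 33.2%, of all tested genes. *Socs1*, an inhibitor of JAK kinases, rose by 3.33 ± 0.10 and 3.74 ± 0.09 on the log2 scale, *Socs3*, of the same family, by 2.14 ± 0.10 and 1.16 ± 0.09, and *Il4ra*, a subunit of the IL-4 receptor, by 1.34 ± 0.05 and 1.56 ± 0.04. *Ifngr1*, the binding chain of the interferon-γ receptor, went from 72.49 and 84.86 FPKM in naive Mb1Cre cells to 14.25 and 14.04 FPKM after activation, with 13.77, 14.21 and 13.99 FPKM in Mct1f/fMb1Cre on day 3. Its differences were -2.39 ± 0.07 and -2.48 ± 0.07, those of *Bin1* -1.66 ± 0.05 and -1.45 ± 0.05, and those of *Ptpn6* -1.33 ± 0.04 and -1.07 ± 0.04.

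Between the genotypes on day 3, all 3 calls among the 45 tested genes of the lists fell in this last list. There 3 of 21 genes were lower in Mct1f/fMb1Cre and 0 higher, beside 2.42% of all tested genes called in either direction. The lists were chosen with earlier results of these data known, so nothing is read from this count. For the same reason the p-values of listed genes between the genotypes describe the fit and are no independent support. In the other 3 lists limma called 0 of 7, 0 of 10 and 0 of 7 genes, with 2, 3 and 3 genes at an unadjusted p under 0.05. *Cd80*, which encodes a ligand of CTLA-4 through which *Ido1* is known to be induced in dendritic cells, had 11.93 and 11.10 FPKM in Mb1Cre and 4.93, 5.70 and 5.34 FPKM in Mct1f/fMb1Cre, a log2 difference of -0.99 ± 0.07 (limma, adjusted p = 1.3e-05). *Cd86*, the other ligand, had 57.47 and 59.64 against 38.74, 40.00 and 42.75 FPKM, a difference of -0.52 ± 0.06 (limma, adjusted p = 0.00028), and its call ended with a pseudocount of 5, at -0.48, without Mb1Cre day 3 replicate 2, at -0.50, and without Mct1f/fMb1Cre day 3 replicate 1, at -0.49. *Socs3*, whose product is known to bind the IDO1 protein and mark it for degradation, had 33.48 and 30.89 against 17.36, 18.35 and 19.42 FPKM, a difference of -0.78 ± 0.09 (limma, adjusted p = 0.00035). The groups did not overlap for *Cd80*, *Cd86* or *Socs3*, where 47.1% of all tested genes did not overlap. For genes already called in this comparison that was likely in advance, and it adds no support.

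Of the 21 genes, 9 had an adjusted p of limma under 0.05 on day 3, the 3 called genes and 6 under the fold limit. Among genes of the interferon pathway, *Irf1*, a transcription factor that interferon induces, had 66.77 and 67.86 FPKM in Mb1Cre and 72.71, 76.15 and 71.44 FPKM in Mct1f/fMb1Cre, a log2 difference of 0.12 ± 0.04 (limma, adjusted p = 0.062). *Ifngr1* showed overlapping ranges, and *Ifngr2*, the other chain of the receptor, had 82.56 and 83.61 against 76.18, 72.04 and 68.92 FPKM, a difference of -0.20 ± 0.06 (limma, adjusted p = 0.036). *Nfkb2*, a subunit gene of NF-κB, had a difference of -0.27 ± 0.06 and *Bin1* one of 0.17 ± 0.05 (limma, adjusted p = 0.010 and 0.039). *Irf4*, a transcription factor of activated B cells, had 80.26 and 77.84 against 55.85, 55.21 and 57.46 FPKM, a difference of -0.49 ± 0.04 just under the limit (limma, adjusted p = 5.5e-05). *Socs1* was at 0.45 ± 0.09 and *Irf8* at 0.23 ± 0.04 (limma, adjusted p = 0.0087 and 0.0021), both with the higher values in Mct1f/fMb1Cre. On day 0 limma called 0 of the 45 genes between the genotypes, with 2 genes at an unadjusted p under 0.05.

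**Figure D5:**
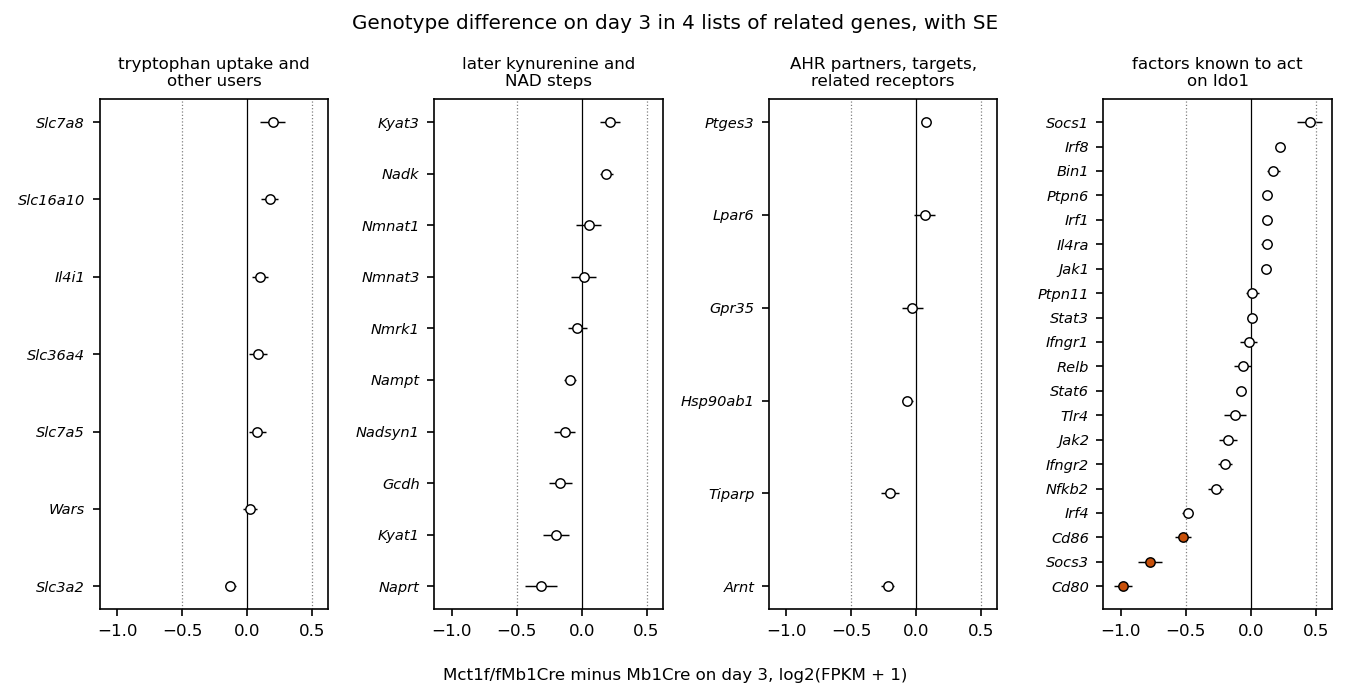
Differences between Mct1f/fMb1Cre and Mb1Cre on day 3 on the log2(FPKM + 1) scale (horizontal axes) with their SE for tested genes of the 4 lists; filled points were called and dotted lines mark the limit of 0.5. *Cd80* at -0.99, *Socs3* at -0.78 and *Cd86* at -0.52 are the called genes, all in the list of factors known to act on *Ido1*. The lists were chosen with earlier results of these data known.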

How the data were processed

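RNA sequencing data of 9 B cell libraries were used as FPKM per gene, deposited by the authors with 2 decimals for 17596 genes. The submitters' processing notes list Bowtie2 and the builds GRCm38 and mm10; the quantifier, the annotation and the use of strand are not given in the sources used here. Groups came from the sample titles. The deposited values were not rescaled; log2(FPKM + 1) was fitted in R 4.3.3 by limma 3.58.1 with a mean for each group, moderated by a trended empirical Bayes prior, and p-values were adjusted by Benjamini-Hochberg over the 10823 genes whose mean reached 1 FPKM. Reads could not be recovered from the low FPKM, so counting gave no interval, and precision rests on the 2 or 3 libraries per group. The fit was tested on simulated data before use. The 9 genes, the 4 lists and the marker lists were chosen with earlier results of these data known. Named genes were the 9 genes, *Slc16a1*, the 5 genes most correlated with *Ido1*, the neighbours of *Ido1* and, from each list, genes called between genotypes and up to 3 of those with the largest change on activation in each direction; *Wars*, *Tdo2*, *Cyp1a1*, *Cyp1a2*, *Cyp1b1*, *Irf1*, *Irf4*, *Irf8*, *Ifngr2* and *Nfkb2* and the genotype values of *Socs1*, *Bin1* and *Ifngr1* were named after their values were seen, and some listed genes are not reported here by name. Positions came from GENCODE M21 and upstream sequences from RefSeq GRCm38.p6, in which all 9 genes were matched and 5 had a window. Alternatives tried were a pseudocount of 0.1 or 5, no filter or a minimum mean of 5 FPKM, 2 other scalings, only the groups compared, the replicate number as a block, other fold limits, and each library left out in turn.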

Additional observations from a re-analysis of the deposited data

Results flagged for a closer look

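The genotype effect differed between the days for 3 genes of the list of factors known to act on *Ido1*, chosen with earlier results of these data known. For *Ido1* itself the effect on day 3 minus that on day 0 was -2.16 on the log2(FPKM + 1) scale. That value holds the contrast by which the genes were chosen and is given without a test. With *Ido1* at or under 0.19 FPKM in every day 0 library, it mostly restates the day 3 difference. By the interaction term of limma, the difference between the days was -1.03 ± 0.10 for *Cd80* (limma, adjusted p = 0.00042). It was -0.985 ± 0.14 for *Socs3* and -0.549 ± 0.09 for *Cd86* (limma, adjusted p = 0.0026 and 0.0050). Over 19 settings the interaction of *Cd80* was called in 19, that of *Socs3* in 18 and that of *Cd86* in 17, with adjusted p of limma of at most 0.0079, 0.022 and 0.028. Because these genes were listed with earlier results known, the p-values and the counts of settings describe the fit and lend no support.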

How the results depend on the processing

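For the 7 tested genes, 626 of 650 comparisons of a value with its alternatives kept the direction and the side of the threshold. This total and the counts of the 7 genes below include the contrasts that hold the values by which the genes were chosen. They describe the settings and lend those contrasts no support. Without a fold limit, the count of the 7 genes past the threshold went from 1 to 5 on day 3 and from 1 to 2 for the difference between the days, and that of the 45 listed genes from 3 to 11 and from 3 to 7. With a log2 limit of 1 the listed genes called numbered 0 on day 3, 1 for the difference between the days and 20 for activation in Mb1Cre. Leaving out 1 library gave 1 to 2 of the tested genes called on day 3, with *Ido2* not tested without Mb1Cre day 3 replicate 1. A pseudocount of 5 left 2 of the 45 listed genes called on day 3, without *Cd86*, and ended the activation calls of *Ido2* and *Kynu* in Mct1f/fMb1Cre. Differences near 0 changed sign: *Kmo* on day 0 was -0.0112 with a common total and lay between -0.0065 and 0.0078 with 1 library left out. In the latter fits *Afmid* lay between -0.00029 and 0.067 on day 3, between -0.12 and 0.071 on day 0 and between -0.0371 and 0.152 for the difference between the days, and *Ido1* on day 0 between -0.00087 and 0.10. A mean of at least 5 FPKM removed *Ido2* and *Ahr*, which then have no value, and without a filter *Qprt* was called lower on activation, at -0.54 in Mb1Cre and -0.65 in Mct1f/fMb1Cre, and *Ahrr* was not called, at -0.14 and -0.07. Fitting only the groups compared could not give the difference between the days, and it called 2 of all tested genes on day 0 in place of 30. Replicate numbers did not pair the libraries: deviations of libraries with the same number correlated between -0.12 and 0.064. With the replicate block, 1 of the 7 genes was called on day 3, 0 on day 0 and 1 for the difference between the days. All 7 were called for activation in each genotype, among them *Ido1* and *Ido2*, which had to differ between the days. These counts were the same without the block. In the same order the block fit called 262, 27 and 274 of the 10823 tested genes, and 6261 and 6103 for activation in Mb1Cre and Mct1f/fMb1Cre. A crossed pairing of the Mb1Cre libraries, added after seeing the data, called 2687 genes higher and 3577 lower on activation. Depth is unknown, so values under 1 FPKM carry no statement of precision.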
